A study of Homo sapiens with 6 samples.

Results

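The genes described here repair breaks, interstrand crosslinks and mismatches in DNA: 33 genes of homologous recombination, the Fanconi anaemia pathway, mismatch repair and the checkpoint that serves them, out of 38126 gene IDs measured. They were taken from a list of gene names and matched to Ensembl IDs, and all 33 had an ID. Expression came from RNA-seq of HK-2 cells, an immortalised human line of renal proximal tubular epithelium that was made with papillomavirus oncogenes, whose products disable p53 and RB. The groups were HK-2 cells exposed to phosphoramidon for 24 h (n = 3) and untreated HK-2 cells, labelled as controls at 24 h (n = 3). Phosphoramidon inhibits zinc metallopeptidases such as neprilysin. All cells were kept in a serum-free medium for keratinocytes, supplemented with EGF and pituitary extract, and were near confluence at exposure. The labels give no dose, do not explain the letters CSE in the control titles, and do not say whether replicates came from independent cultures. The p-values therefore reflect only how these 6 libraries scatter, and part or all of that scatter may be technical.

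Homologous recombination copies a broken chromosome from its sister and is used mostly in S and G2 phase, when a sister exists. The Fanconi pathway detects crosslinks at stalled replication forks and marks FANCD2 and FANCI with ubiquitin so that nucleases and recombination can follow. Mismatch repair removes copying errors behind the fork. Many of these genes are transcribed in S phase under E2F factors and the DREAM repressor complex, while others are transcribed through the whole cycle. By that general knowledge 20 members were classed as cell-cycle-linked and 13 as constitutive, and 10 of the 33 are borderline. Borderline in the cell-cycle-linked class are XRCC2, FANCB, RAD54B, MSH6 and TOPBP1. In the constitutive class they are CHEK2, FANCG, FANCM, FANCE and PALB2.

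Values are FPKM, fragments scaled by gene length and by the library total, which corrects for gene length and allows levels of different genes to be compared. Assigned totals recovered from the FPKM values were 18690100 to 24919568 fragments in phosphoramidon libraries and 23493829 to 24815378 in untreated libraries. For a gene 1 kb long, a single fragment gave between 0.0401 and 0.0535 FPKM. All 33 members passed the filter of at least 10 fragments in at least 3 libraries, the lowest being RAD54B with 92 to 156 fragments per library. The proximal tubule label was only partly borne out by its markers. LRP2, SLC22A6 and HNF4A lay at or near 0, while PAX8 and CDH6 were among the abundant genes. The 12 proximal tubule markers summed to 129 to 135 FPKM in phosphoramidon libraries and 149 to 153 FPKM in untreated libraries. Of 7 tested 0 rose and 3 fell, CDH6 by 1.08 on the log2 scale. Of all tested genes, 15.6% were called higher and 17.9% lower. The 5 epithelial markers summed to 200.3 to 215 FPKM in phosphoramidon libraries and 328 to 365 FPKM in untreated libraries, and the keratins KRT8, KRT18 and KRT19 fell. Of the 5, which include EPCAM and CDH1, 0 were called higher, 3 lower and 2 not called. Their log2 fold changes ran from -1.18 to 0.22. The 4 endothelial markers with an ID, all below 0.1 FPKM in every library, summed to 0.132 to 0.138 FPKM in phosphoramidon libraries and 0.0796 to 0.130 FPKM in untreated libraries. The 8 fibroblast markers summed to 23.5 to 25.01 FPKM in phosphoramidon libraries and 60.9 to 65.7 FPKM in untreated libraries, with COL3A1 listed at 0. The part of these markers in the results below was not tested. In bulk RNA, a different share of cells in S or G2 phase and a different amount of RNA per cell cannot be told apart.

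Because most of the members that changed did so together, the promoters were searched for the letters that E2F factors are known to bind. The windows were RefSeq's (GRCh38.p14), from 250 bases before to 50 bases after each annotated start, and 31 of 33 members had at least 1. Matches to TTTCCCGC, TTTGGCGC, TTTCGCGC or TTTGCCGC on either strand occurred in 9 of 31 members (29.03%), against 736 of 11438 tested genes with a window (6.43%). They occurred in 7 of 18 cell-cycle-linked members and in 2 of 13 constitutive ones. The classes were drawn from general knowledge of E2F and DREAM targets, so this split is partly built into them. The stretches of 30 bases around these matches are shown because they are the feature shared by part of the list that expression did not define. Each reads 5′ to 3′ on the gene's strand, with the match in capitals (GCGGGAAA and the like are matches on the other strand).
CLSPN (chr1:35769965-35769994, minus strand): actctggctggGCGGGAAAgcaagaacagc
EXO1 (chr1:241848197-241848226, plus strand): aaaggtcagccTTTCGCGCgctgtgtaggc
FANCA (chr16:89816801-89816830, minus strand): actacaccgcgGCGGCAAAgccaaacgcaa
FANCD2 (chr3:10026424-10026453, plus strand): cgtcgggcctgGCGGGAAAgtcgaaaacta
MSH6 (chr2:47783137-47783166, plus strand): ctccccccagaTTTCCCGCcagcaggagcc
TOPBP1 (chr3:133661930-133661959, minus strand): ccgcgcggttgGCGCGAAAgtcggttcccg
XRCC2 (chr7:152676102-152676131, minus strand): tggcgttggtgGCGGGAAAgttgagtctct
FANCC, nearer the start (chr9:95317737-95317766, minus strand): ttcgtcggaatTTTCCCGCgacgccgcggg
FANCC, farther from the start (chr9:95317863-95317892, minus strand): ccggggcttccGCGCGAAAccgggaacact
PMS2 (chr7:6009131-6009160, minus strand): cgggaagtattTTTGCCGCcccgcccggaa
In CLSPN, FANCD2 and TOPBP1 the match began 5, 2 and 7 bases before the start, and in EXO1 and MSH6 it began at the fifth and the fourth base after it. Of the members with a window, 5 of 18 that rose and 4 of 13 others held a match. Among S phase marker genes 17 of 27 held the letters, and among G2/M marker genes 3 of 45. The letters of the CHR element of mitotic genes, TTTGAA or TTCGAA, occurred in 5 of 31 members (16.1%), against 15.4% of tested genes and 35 of 45 G2/M markers. CCAAT occurred in 16 of 31 members (51.6%), against 43.0% of tested genes. None of the E2F matches shown overlapped a CHR or CCAAT match. A match is a run of letters and does not show binding.

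After 24 h of phosphoramidon the repair genes were mostly higher. By limma's test with Benjamini-Hochberg adjustment over 16175 genes, 20 of 33 members rose and 1 fell, where 15.6% of all tested genes were called higher, 17.9% lower and 33.6% in either direction. The members' median log2 fold change was 0.38, against 0.01 for all tested genes. Of the 20 cell-cycle-linked members 15 rose and 0 fell, with a median of 0.48 and a middle range from 0.35 to 0.56 (0 fell at an unadjusted p under 0.05 too, and 0 by voom). Of the 13 constitutive members 5 rose and 1 fell, with a median of 0.16 and a middle range from 0.05 to 0.38. With the borderline members left out of both classes, 12 of 15 and 2 of 8 rose, with medians of 0.50 and 0.10. The difference between the classes was not tested. Changes were modest throughout: 0 of 33 members passed limma's test against 1.5-fold (2 at an unadjusted p under 0.05, and 0 adjusted by voom), which 0.804% of all tested genes passed. After scaling between libraries, the groups did not overlap in 23 members that were higher after phosphoramidon and 2 that were lower, against 23.9% and 24.2% of all tested genes.

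**Figure D1:**
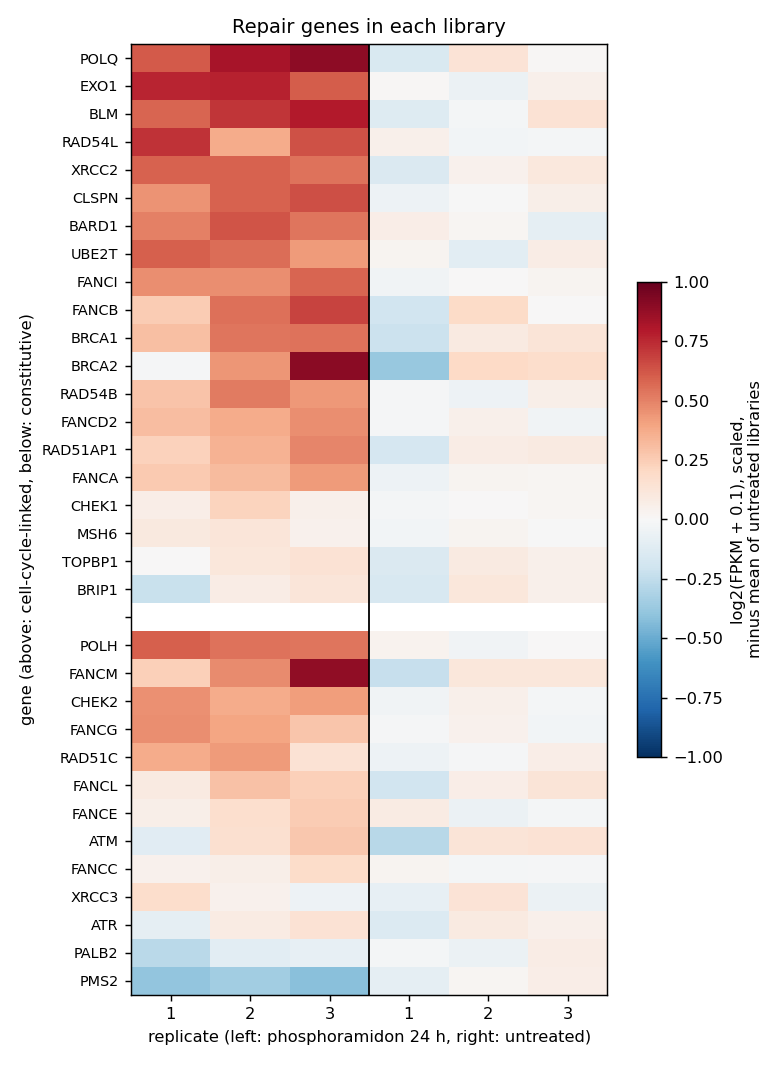
Scaled log2(FPKM + 0.1) of each of the 33 members in each library, minus the mean of the 3 untreated libraries, for phosphoramidon replicates 1 to 3 (left) and untreated replicates 1 to 3 (right). Cell-cycle-linked members are above the gap and constitutive members below it, each ordered by fold change. Red covers most of the upper left block, while PMS2 and PALB2 at the foot are blue in the phosphoramidon libraries.

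**Figure D2:**
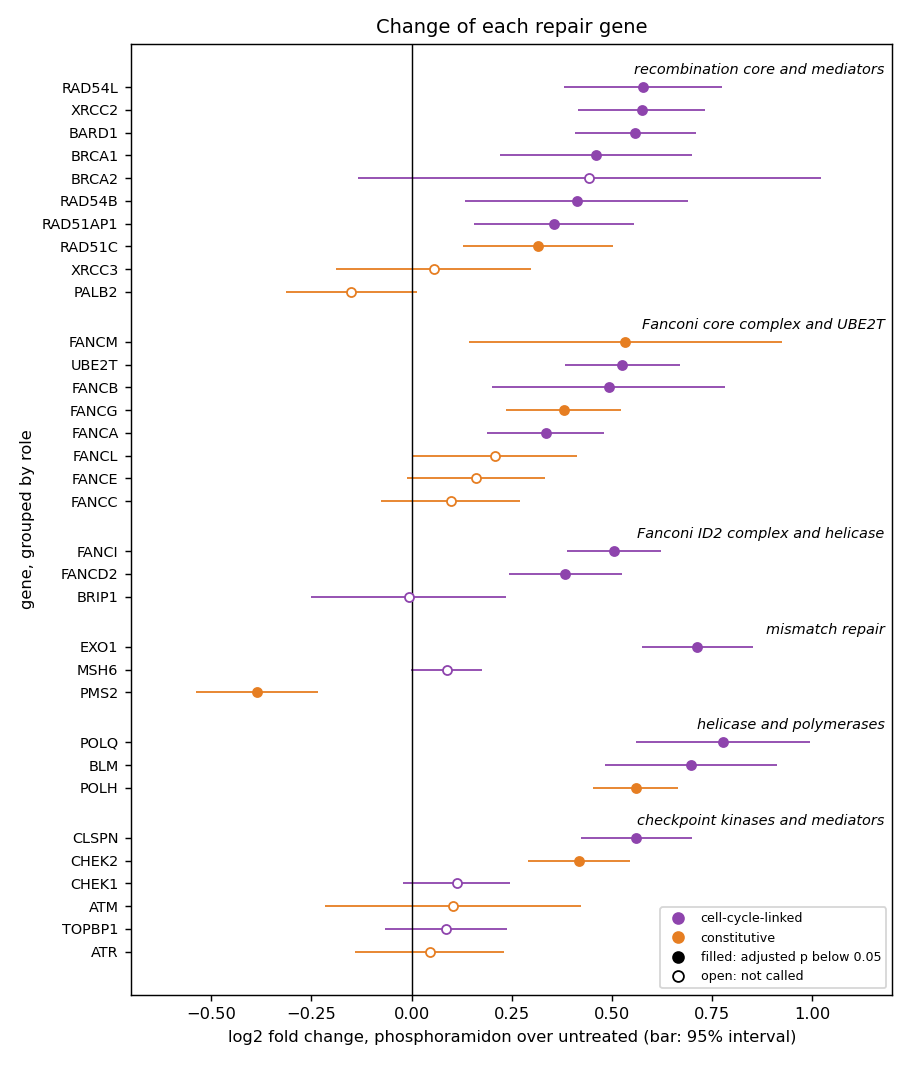
Log2 fold change of each member, phosphoramidon over untreated, with its 95% interval, grouped by role. Filled points are members called at an adjusted p under 0.05 (limma). PMS2 is the member called lower, and the intervals of BRCA2 and FANCM are the widest.

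The polymerases and the helicase BLM held 2 of the 3 highest fold changes among the members. POLQ, the polymerase of microhomology-mediated end joining (chromosome 3, 121431427 to 121546641 on GRCh38), had 5.498, 6.44 and 6.84 FPKM in phosphoramidon libraries, against 3.04, 3.82 and 3.45 FPKM in untreated libraries. The groups lay apart, and POLQ rose by 0.78 ± 0.10 (log2 fold change, SE here and below), a 1.71-fold change with limma adjusted p = 4.9e-04. It stood above 98.2% of all tested genes by fold change. BLM, the helicase mutated in Bloom syndrome, which dissolves recombination intermediates (chromosome 15, 90717327 to 90816165), had 3.47, 3.87 and 4.15 FPKM in phosphoramidon libraries, against 1.98, 2.21 and 2.45 FPKM in untreated libraries. Every phosphoramidon library was above every untreated one, with a log2 fold change of 0.70 ± 0.09 (adjusted p = 8.25e-04). POLH, the translesion polymerase that copies past ultraviolet damage (chromosome 6, 43576150 to 43615660), is classed as constitutive and is also known as a p53 target. It had 11.28, 10.98 and 11.03 FPKM in phosphoramidon libraries, against 7.23, 7.05 and 7.14 FPKM in untreated libraries, and both groups were tight. Its log2 fold change was 0.56 ± 0.05, with the lowest adjusted p of the list (7.5e-05).

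In the mismatch repair group the 3 members went different ways. EXO1, the exonuclease that removes the mismatched strand and also resects breaks (chromosome 1, 241847967 to 241895148), had 10.9, 11.1 and 9.996 FPKM in phosphoramidon libraries, against 6.12, 6.00 and 6.34 FPKM in untreated libraries. These groups were far apart relative to their spread, and EXO1 rose by 0.71 ± 0.06 (adjusted p = 8.1e-05). MSH6, a subunit of the mismatch recognition complex, was the most abundant member, at 26.8 ± 0.560 FPKM after phosphoramidon and 24.0 ± 0.736 FPKM in untreated cells (SD, n = 3). Its groups did not overlap, but its log2 fold change of 0.09 did not pass (95% interval -0.0014 to 0.18, limma adjusted p = 0.12). With values as deposited, without factors between libraries, it passed at 0.16 (adjusted p = 0.013).

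PMS2, the nuclease subunit that nicks the strand to be repaired (chromosome 7, 5973239 to 6009125), was the member that fell. It had 3.29, 3.46 and 3.33 FPKM in phosphoramidon libraries, against 3.91, 4.32 and 4.41 FPKM in untreated libraries. The groups did not overlap, and the log2 fold change was -0.39 ± 0.07 (limma adjusted p = 0.0027), lower in every alternative run. PMS2 has many near-identical pseudogenes, so its counts are uncertain. Of these PMS2CL had 3.15 FPKM after phosphoramidon and 3.54 FPKM in untreated cells, with a log2 fold change of -0.23, and PMS2P4 had 4.17 FPKM after phosphoramidon and 5.59 FPKM in untreated cells, with -0.48. Both were called lower. PMS2P1 was not called (0.04). PMS2P3 had 3.99, 3.41 and 3.78 FPKM in phosphoramidon libraries, against 3.46, 3.55 and 3.10 FPKM in untreated libraries, with overlap. How reads shared by PMS2 and these copies were divided is not given.

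Of the 10 recombination core and mediator genes 7 rose (70%) and 0 fell, against 15.6% higher and 17.9% lower among all tested genes. XRCC2, a recombination mediator, had 8.44, 8.55 and 8.36 FPKM in phosphoramidon libraries, against 4.78, 5.63 and 5.75 FPKM in untreated libraries. Untreated replicate 1 was the lowest of its group, but the groups lay well apart, with a log2 fold change of 0.57 ± 0.07 (adjusted p = 4.7e-04). RAD54L, a motor protein that acts during strand invasion of the template, had 10.6, 8.35 and 10.2 FPKM in phosphoramidon libraries, against 6.26, 6.08 and 6.03 FPKM in untreated libraries. Phosphoramidon replicate 2 was the low one of its group and was still above all untreated libraries (log2 fold change 0.58 ± 0.09, adjusted p = 0.0014). BARD1, the obligate partner of BRCA1 in a ubiquitin ligase, had 5.48, 6.07 and 5.75 FPKM in phosphoramidon libraries, against 3.83, 3.81 and 3.45 FPKM in untreated libraries. It rose by 0.56 ± 0.07 (adjusted p = 4.2e-04), the groups again without overlap.

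BRCA1 itself, which promotes resection and recruits PALB2 and BRCA2, was more variable. It had 7.61, 9.08 and 9.24 FPKM in phosphoramidon libraries, against 5.03, 6.42 and 6.47 FPKM in untreated libraries. Replicate 1 was the low one in each group, and BRCA1 rose by 0.46 ± 0.10 (adjusted p = 0.011). Its pseudogene BRCA1P1 had 6.02, 4.52 and 5.75 FPKM in phosphoramidon libraries, against 9.58, 6.17 and 7.05 FPKM in untreated libraries. How reads were divided between BRCA1 and BRCA1P1 is not given. BRCA2, a recombination mediator that acts on single-stranded DNA, had 1.47, 2.07 and 2.93 FPKM in phosphoramidon libraries, against 1.06, 1.68 and 1.63 FPKM in untreated libraries. Its groups overlapped, because phosphoramidon replicate 1 was below 2 untreated libraries, and its log2 fold change of 0.44 ± 0.25 did not pass (95% interval -0.13 to 1.02, adjusted p = 0.21). Thus a change as large as that of BRCA1 was within its interval. PALB2, the bridge between BRCA1 and BRCA2, had 4.04, 4.60 and 4.73 FPKM in phosphoramidon libraries, against 4.58, 4.59 and 4.96 FPKM in untreated libraries. Those groups overlapped as deposited, while after scaling every phosphoramidon library was below every untreated one. The change was not called (log2 fold change -0.15, 95% interval -0.31 to 0.01).

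Of the other 4 recombination genes 3 rose. RAD51AP1, a cofactor of strand invasion, rose by 0.36 ± 0.09, with 13.6 ± 1.41 FPKM after phosphoramidon and 10.1 ± 1.09 FPKM in untreated cells (SD, n = 3 each). RAD54B, a relative of RAD54L, was the scarcest member, at 1.09 ± 0.103 FPKM after phosphoramidon and 0.753 ± 0.0303 FPKM in untreated cells. Its call (log2 fold change 0.41, adjusted p = 0.031) did not survive leaving out phosphoramidon replicate 2 (adjusted p = 0.11) or 3 (0.073), or untreated replicate 1 (0.072) or 2 (0.080). RAD51C, a recombination mediator classed as constitutive, had 5.26, 5.53 and 4.59 FPKM in phosphoramidon libraries, against 3.70, 3.91 and 4.06 FPKM in untreated libraries. Its rise of 0.32 ± 0.08 (adjusted p = 0.019) was lost without phosphoramidon replicate 1 (0.054) or 2 (0.068) or untreated replicate 1 (0.056). XRCC3, its partner, was not called, at 1.72 ± 0.124 FPKM after phosphoramidon and 1.57 ± 0.164 FPKM in untreated cells (log2 fold change 0.05, 95% interval -0.19 to 0.30).

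In the Fanconi pathway, 5 of 8 genes of the core complex and its conjugating enzyme rose (62.5%) and 0 fell. The shares of all tested genes were 15.6% higher and 17.9% lower. UBE2T, the enzyme that passes ubiquitin to FANCD2 and FANCI (chromosome 1, 202331657 to 202341980), was the most abundant of the 8. It had 27.4, 27.1 and 24.9 FPKM in phosphoramidon libraries, against 17.6, 16.4 and 18.4 FPKM in untreated libraries. The groups lay apart, with a log2 fold change of 0.53 ± 0.06 (adjusted p = 4.3e-04). FANCI, one part of the clamp that receives the ubiquitin, had 10.3, 10.5 and 11.5 FPKM in phosphoramidon libraries, against 6.92, 7.30 and 7.29 FPKM in untreated libraries. FANCD2, the other part of the clamp, had 5.57, 5.90 and 6.37 FPKM in phosphoramidon libraries, against 4.22, 4.54 and 4.18 FPKM in untreated libraries. Both rose without overlap, FANCI by 0.50 ± 0.05 (adjusted p = 2.0e-04) and FANCD2 by 0.38 ± 0.06 (adjusted p = 0.0020).

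The substrate-side helicase and the scaffold genes of the core were less uniform. BRIP1 (FANCJ), the helicase that binds BRCA1, had a log2 fold change of -0.01 ± 0.11, with 5.23 ± 0.715 FPKM after phosphoramidon and 5.00 ± 0.558 FPKM in untreated cells (95% interval -0.25 to 0.24). Among the scaffold genes FANCG had 7.22, 6.96 and 6.46 FPKM in phosphoramidon libraries, against 4.90, 5.22 and 4.91 FPKM in untreated libraries, and rose by 0.38 ± 0.06 (adjusted p = 0.0023). FANCA rose by 0.33 ± 0.06 (adjusted p = 0.0048), to 5.19 ± 0.374 FPKM after phosphoramidon against 3.89 ± 0.159 FPKM in untreated cells. Both are clear of the spread between libraries. FANCB, the X-linked core gene, rose by 0.49 ± 0.13 (adjusted p = 0.019), but not without phosphoramidon replicate 2 (0.063) or 3 (0.057) or untreated replicate 1 (0.054).

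FANCM, the translocase that anchors the core complex to DNA, had 2.12, 2.55 and 3.46 FPKM in phosphoramidon libraries, against 1.44, 1.89 and 1.86 FPKM in untreated libraries. Its rise of 0.53 ± 0.17 was close to the threshold (adjusted p = 0.043). The call held without phosphoramidon replicate 1 but was lost without any one other library: adjusted p = 0.084 without phosphoramidon replicate 2, 0.098 without 3, and 0.12, 0.063 and 0.062 without untreated replicates 1, 2 and 3. FANCL, the ubiquitin ligase of the complex, had 10.4, 12.1 and 11.8 FPKM in phosphoramidon libraries, against 8.08, 9.94 and 10.2 FPKM in untreated libraries. FANCE, which binds FANCD2, had 3.58, 3.91 and 4.22 FPKM in phosphoramidon libraries, against 3.46, 3.21 and 3.25 FPKM in untreated libraries. Neither was called, at log2 fold changes of 0.21 (95% interval 0.00 to 0.41) and 0.16 (-0.01 to 0.33), nor was FANCC, at 0.10 (-0.08 to 0.27).

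**Figure D3:**
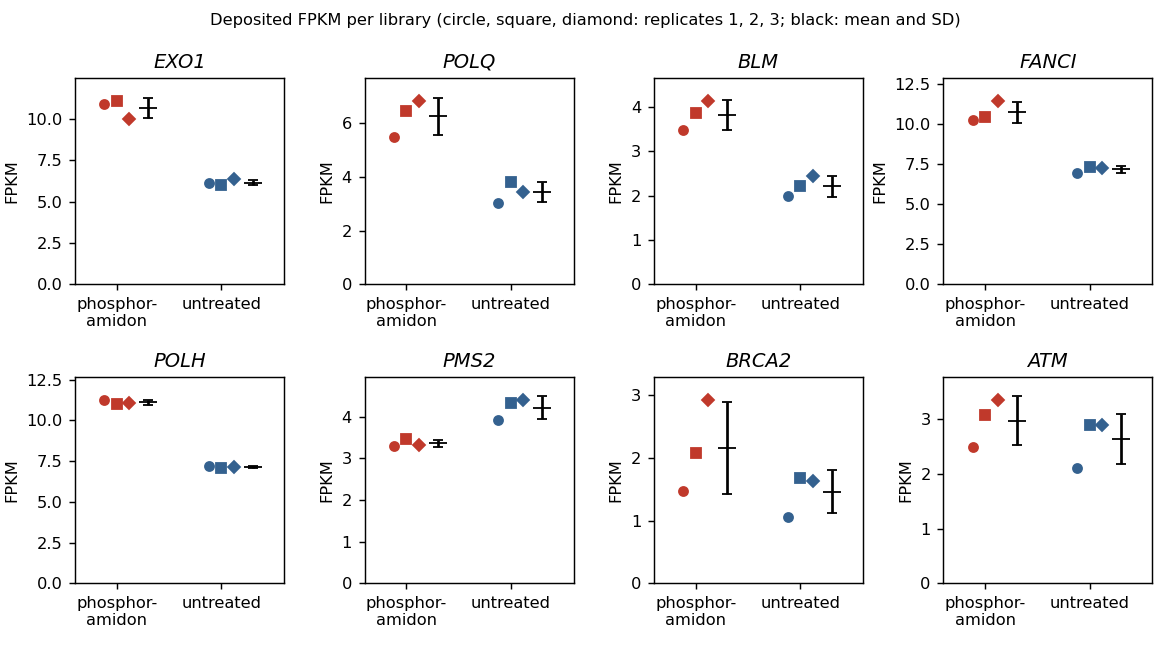
Deposited FPKM of 8 members in each library, phosphoramidon left and untreated right, with the mean and SD of each group of 3 in black. EXO1, POLQ, BLM, FANCI and POLH are higher in every phosphoramidon library, and PMS2 is lower in every one. Replicate 1 (circles) is the lowest of both groups in POLQ, BLM, FANCI, PMS2, BRCA2 and ATM.

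Of the 6 checkpoint genes 2 rose (33.3%) and 0 fell, where 15.6% of all tested genes were called higher and 17.9% lower. CLSPN, or claspin, which lets ATR activate CHEK1 at stalled forks (chromosome 1, 35720218 to 35769967), had 12.1, 13.5 and 14.2 FPKM in phosphoramidon libraries, against 8.09, 8.58 and 8.84 FPKM in untreated libraries. The groups lay apart and CLSPN rose by 0.56 ± 0.06 (adjusted p = 2.7e-04). CHEK2, the kinase downstream of ATM, had 6.18, 5.90 and 6.18 FPKM in phosphoramidon libraries, against 4.17, 4.54 and 4.24 FPKM in untreated libraries, and rose by 0.42 ± 0.06 (adjusted p = 7.7e-04). The kinases that sense damage were not called: ATM, which responds to breaks, had a log2 fold change of 0.10 (95% interval -0.22 to 0.42) and ATR, which responds to single-stranded DNA, 0.05 (-0.14 to 0.23). Nor were CHEK1, the kinase downstream of ATR, at 0.11 (-0.02 to 0.25), and TOPBP1, the activator of ATR, at 0.09 (-0.07 to 0.24). Thus claspin and CHEK2 moved while the intervals of ATM and ATR included 0. The interval of ATR stayed below the estimate for claspin. That of ATM included the estimate for CHEK2, so an equal rise of ATM was within it. CHEK1, with 8.36 ± 0.579 FPKM after phosphoramidon and 7.34 ± 0.178 FPKM in untreated cells, passed with values as deposited (0.18, adjusted p = 0.042).

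Libraries with replicate number 1 stood apart for part of the list. After scaling, in 15 of 33 members (45.5%) replicate 1 was the lowest library of both groups, against 15.1% of all tested genes. These are BRCA1, BRCA2, BRIP1, RAD51AP1, FANCA, FANCB, FANCI, FANCL, FANCM, BLM, POLQ, ATM, ATR, TOPBP1 and CLSPN. The median over cell-cycle-linked members, relative to the untreated mean, was 0.31, 0.49 and 0.54 on the log2 scale in phosphoramidon replicates 1 to 3, and -0.05, 0.03 and 0.05 in untreated replicates 1 to 3. For constitutive members it was 0.09, 0.17 and 0.24 in phosphoramidon libraries and -0.05, 0.04 and 0.05 in untreated libraries. Base composition moved with the library: over the 2687 tested genes with transcript GC of at most 40%, the same median was 0.01, 0.11 and 0.10 in phosphoramidon libraries and -0.06, 0.02 and 0.05 in untreated libraries. Of the 10 members in that GC range, 7 had replicate 1 as the lowest library of both groups, among them BRCA2 (36.3% GC) and FANCM (37.7%), while BARD1, RAD54B and XRCC2 did not. Of the 23 members with more GC, 8 did, among them FANCA (55.4%), CLSPN (44.8%) and BRCA1 (41.9%). Over the 4358 tested genes above 55% GC, the median relative to the untreated mean was -0.05, -0.09 and -0.07 in phosphoramidon libraries. In untreated libraries it was 0.03, 0.02 and -0.05. The part of base composition in these patterns was not tested. With the GC and length trend of each library removed, 15 of 20 cell-cycle-linked members still rose, as did 6 of 13 constitutive ones. The added one was FANCE (0.24, limma adjusted p = 0.041). The class medians were then 0.43 (cell-cycle-linked) and 0.18 (constitutive), against 0.48 and 0.16 in the fit used. This alternative was chosen after seeing the data.

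Some members share exon bases with a neighbour, so reads in those bases are uncertain. FSBP lies on the strand of RAD54B, and the other neighbours named here lie on the opposite strand, where the use of strand in counting would matter and is not given. The shared part was 76.7% of the merged exon length of XRCC3 (with KLC1), 59.1% of RAD54B (with FSBP) and 25.1% of RAD54L (with LRRC41). It was 23.6% of FANCA (with ZNF276), 18.7% of FANCL (with VRK2), 16.4% of ATR (with EIF2AK1P1) and 16.2% of MSH6 (with FBXO11). FSBP and LRRC41 were called lower, at -0.35 and -0.21, where RAD54B and RAD54L rose. KLC1, ZNF276, VRK2 and FBXO11 were not called, and EIF2AK1P1 was not among the IDs measured.

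Genes of the same pathways outside the list included some that rose and some that fell. Of 39 further recombination genes 15 rose (38.5%) and 6 fell (15.4%), and their median log2 fold change was 0.12. Among all tested genes 15.6% were called higher and 17.9% lower. The histone H2AX, whose phosphorylated form marks breaks, had 39.6, 36.9 and 38.95 FPKM in phosphoramidon libraries, against 24.9, 27.1 and 25.6 FPKM in untreated libraries (0.50 ± 0.04, adjusted p = 1.0e-04). BABAM2, a scaffold of the BRCA1-A deubiquitinase complex, fell by 0.52 on the log2 scale. Of 14 further Fanconi genes 4 rose (28.6%) and 1 fell (7.14%), with a median of 0.03. USP1, the enzyme that removes ubiquitin from FANCD2, had the lowest p of those that rose (0.25), and the nuclease subunit ERCC1 was the one that fell (-0.27). Of 5 further mismatch repair genes MSH3, which recognises insertion and deletion loops, rose (0.23) and 0 fell.

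Repair pathways that act through the whole cycle had medians near that of all genes. For end joining 0 of 11 tested genes rose (0 at an unadjusted p under 0.05, and 0 by voom) and 2 fell. The median was 0.01. Those that fell were POLM, a polymerase of this pathway, at -0.49, and XRCC5, the Ku80 subunit, at -0.18. XRCC5 was named after its value was seen. The list does not hold the end joining polymerase POLQ, a member that rose by 0.78. For base excision repair 3 of 19 rose and 4 fell (median -0.07), with the glycosylase NEIL3 at 0.59 and the endonuclease APEX2 at -0.25. For nucleotide excision repair 2 of 20 rose and 0 fell (2 at an unadjusted p under 0.05, and 2 by voom), with a median of -0.01, and ERCC6, of transcription-coupled repair, was at 0.32. In these 3 lists the share called higher was at most 15.8%, near the 15.6% of all tested genes. The share called lower was at most 21.1%, against 17.9% of all tested genes.

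**Figure D4:**
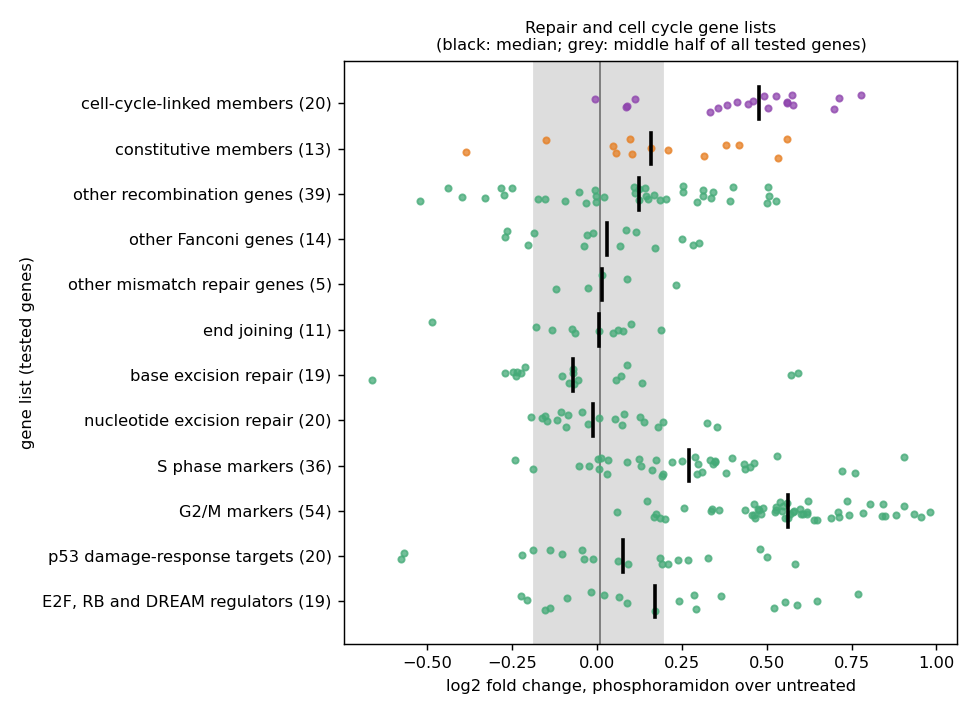
Log2 fold change of every tested gene, phosphoramidon over untreated, in the members' classes and in 10 other lists (number tested in parentheses), with each list's median in black and the middle range of all 16175 tested genes in grey. The medians of the cell-cycle-linked members (0.48), the S phase markers (0.27) and the G2/M markers (0.56) lie to the right of the grey band, and those of the excision and end joining lists lie within it.

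Cell cycle genes moved with the members. Of 36 S phase markers 22 rose and 2 fell, with a median of 0.27, and of 54 G2/M markers 48 rose and 0 fell, with a median of 0.56. The proliferation marker MKI67 had 58.4, 68.6 and 66.1 FPKM in phosphoramidon libraries, against 32.1, 35.5 and 34.3 FPKM in untreated libraries (0.85 ± 0.06). TOP2A, the topoisomerase of mitotic chromosomes, was at 0.69 and the G1/S cyclin CCNE2 at 0.72, both called higher. Among E2F, RB and DREAM genes 9 of 19 rose (47.4%) and 2 fell (10.5%), with a median of 0.17. Of all tested genes, 15.6% were called higher and 17.9% lower. FOXM1 rose by 0.65, E2F1 by 0.59 and MYBL2 by 0.29, the repressor-type E2F4 fell by 0.21 on the log2 scale, and RB1 was not called (0.17, adjusted p = 0.078). The part of cell cycle distribution in the repair gene changes was not tested.

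Of 20 targets of p53, which damage induces in cells with active p53, 6 rose (30%) and 3 fell (15%), with a median of 0.08. The shares of all tested genes were 15.6% higher and 17.9% lower. CDKN1A, the inhibitor p21, had 36.2, 34.4 and 35.1 FPKM in phosphoramidon libraries, against 30.1, 28.0 and 29.03 FPKM in untreated libraries (0.21 ± 0.05, adjusted p = 0.011). MDM2, the ligase that degrades p53, had 4.63, 4.60 and 4.83 FPKM in phosphoramidon libraries, against 5.00, 5.31 and 5.01 FPKM in untreated libraries (-0.19 ± 0.05, adjusted p = 0.025). The groups of both genes did not overlap, in opposite directions.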

How the data were processed

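RNA-seq libraries of 3 phosphoramidon-treated and 3 untreated HK-2 samples were compared. The authors deposited FPKM per Ensembl gene ID. Per the submitters' processing notes the tools included Trimmomatic 0.38, HISAT2 2.1.0, featureCounts 1.6.0 and DESeq2 1.22.1 on GRCh38, with no role or order given. Which annotation was counted, and whether by strand, is not given in the sources used here. FPKM times gene length fell on whole multiples of 1 step per library. Of 34623 genes above 0, 79.2% gave whole fragments (within 0.05) at the merged exon length of GENCODE 29, and lengths were searched for the rest. The searched length was far from that of GENCODE for CLSPN (9591 against 5411 bases), PMS2 (6231 against 3936) and BARD1 (7572 against 6067). Fragments served for the filter, for TMM factors (30% of M and 5% of A values trimmed) and for voom. Symbols matched 37892 of the IDs.

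Limma 3.58.1 (R 4.3.3) with a trended, robust prior was fitted to log2(FPKM / factor + 0.1), group alone, on 16175 genes. Adjusted p-values are Benjamini-Hochberg over these, with a threshold of 0.05, and intervals are 95%. A fold change on this scale understates changes of low genes. The members, classes and lists were chosen with earlier results of these data known. Per-library values are given for the 10 cell-cycle-linked and 8 constitutive members with the lowest p, for other members chosen after seeing values, and for list genes by lowest p in each direction or from a fixed set of cell cycle and p53 genes. Alternatives were other factors, pseudocounts and filters, voom, a replicate block, leaving out each library, and a GC and length correction added later.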

Additional observations from a re-analysis of the deposited data

How the results depend on the processing

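No member with a call changed direction under any alternative. For all 33 members the count called higher was 23 with values as deposited, 14 without a filter and 16 to 19 when 1 library was left out, and the count called lower was 1 in all of these. Without a filter, BRCA1, RAD51AP1, RAD51C, RAD54B, FANCB and FANCM were not called. For constitutive members, 5 rose in the fit used, against 3 without a filter, 2 with borderline members left out, and 3 to 4 when 1 library was left out (3 without phosphoramidon replicate 2 or untreated replicate 1). For cell-cycle-linked members the leave-one-out range was 13 to 15. Over all tested genes 2531 were called higher, against 1543 without a filter and 1764 to 2163 with 1 library left out. As deposited, 3647 were higher and 2169 lower, against 2531 and 2901 with factors, and the median of all genes was 0.07, against 0.01. The median of cell-cycle-linked members ran from 0.40 to 0.55 over the alternatives and that of constitutive members from 0.10 to 0.23.

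Over all tested genes, deviations from group means correlated at 0.11, -0.02 and -0.01 for libraries sharing number 1, 2 and 3. Libraries with unlike numbers ran from -0.10 to 0.12. These values do not show whether replicates were paired, and 15 of 33 members had replicate 1 lowest in both groups. With the replicate block, 21 members rose and 1 fell. BRCA2 (0.44, adjusted p = 0.035) and FANCL (0.21, adjusted p = 0.023) were then called and RAD54B (adjusted p = 0.054) was not. With voom FANCL was called (adjusted p = 0.034) and FANCM was not (adjusted p = 0.10). The cause of these differences was not tested. With 92 to 156 fragments per library, RAD54B is the member most limited by depth. Groups of 3 were not screened for single outlying libraries.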
